A study of Mus musculus with 4 samples.

Results

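The Wnt ligands described here are 10 genes: Wnt10a, Wnt10b, Wnt6, Wnt9b, Wnt7b, Wnt4, Wnt5a, Wnt11, Wnt2 and Wnt2b. The rule took the probes of the array that carry these gene names. They hold 11 of the 39429 probes and 10 of the 24357 named genes, with 2 probes for Wnt4 and 1 probe for each of the others. The study asked which transcripts differ in the ureter of mouse embryos shortly before birth when ΔNp63, the p63 form of basal epithelial cells, is targeted. Ureters of NMRI embryos at stage E18.5 were dissected, and their total RNA was hybridised to 4 arrays of 2 colours with a mutant RNA and a control RNA on each. The mutant (ΔNp63-cKO, here cKO) carried Pax2-cre/+ together with Trp63(dN-flox/dN-flox), so the deletion depends on where and when the Pax2-driven cre is active. The control was Trp63(dN-flox/?), which leaves the second allele unstated, and no cre is listed for it. Floxed Trp63 was thus common to both genotypes. Arrays 1, 3 and 4 held female pairs and array 2 a male pair. Whether an RNA came from 1 embryo or from a pool is not stated. The p-values rest on these 4 arrays, and whether they reflect variation between embryos or between pools is unknown.

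Wnt proteins are secreted, lipid-modified signals. Porcupine attaches the lipid, Wls carries the ligand to the cell surface, and Frizzled receptors with the co-receptors Lrp5 and Lrp6 pass the signal on to β-catenin, which acts with Tcf and Lef factors on target genes such as Axin2. Other Wnt ligands, of which Wnt5a is the best known, signal largely without β-catenin through receptors such as Ror2. In the developing ureter, Wnt7b and Wnt9b are made by the epithelium and act on the mesenchyme around it, from which smooth muscle forms. In the kidney, Wnt9b comes from the stalks of the ureteric tree, Wnt11 from its tips, and Wnt4 from the cells that form nephrons.

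Shown here are 3 sequences, those of 2 upstream windows and of 1 probe. No relation of the windows to the ratios was tested. Of the 10 ligands, 7 had an entry in the RefSeq promoter table (GRCm38.p6), with 8 entries in all. Wnt10a, Wnt7b and Wnt5a had none. The windows of Wnt6 and Wnt9b are shown because these ligands moved in opposite directions. Each is the 250 bases before the start of transcription, read 5′ to 3′ on the gene's strand, and capitals mark each CG pair. The Wnt6 window lies at chr1:74771642-74771891 on the plus strand and the Wnt9b window at chr11:103749822-103750071 on the minus strand.
Wnt6: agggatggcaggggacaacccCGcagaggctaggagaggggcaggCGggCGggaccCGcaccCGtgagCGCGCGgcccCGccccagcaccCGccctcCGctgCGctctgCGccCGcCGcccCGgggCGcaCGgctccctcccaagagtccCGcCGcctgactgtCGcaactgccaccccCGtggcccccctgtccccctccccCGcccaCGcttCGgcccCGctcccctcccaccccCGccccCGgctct
Wnt9b: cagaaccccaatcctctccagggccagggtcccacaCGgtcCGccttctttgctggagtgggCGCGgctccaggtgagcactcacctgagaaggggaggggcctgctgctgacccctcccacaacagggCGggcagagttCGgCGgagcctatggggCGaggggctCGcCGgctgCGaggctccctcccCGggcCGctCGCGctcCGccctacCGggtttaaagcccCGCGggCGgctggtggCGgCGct
Both windows were rich in CG pairs, with 28 in Wnt6 (79.6% G or C) and 22 in Wnt9b (72.0%), against medians of 6 pairs and 52.4% over 32841 promoters of this length. The letters CTTTGAT and CTTTGAA, which Tcf and Lef factors are known to bind, were searched on both strands. They occur in 3.21% and 4.45% of all windows, and neither was in the Wnt6 or Wnt9b window. Nor was a pair of p53-family core motifs exactly 6 bases apart, present in 5.84% of windows, or TATAAA, present in 12.4%. Pairs at other spacings were not searched. Of the 8 windows of these ligands, 1 of the 2 Wnt11 windows held CTTTGAT, on the minus strand at positions -51 to -45, and TATAAA at -29 to -24, where -1 is the base before the start.

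The third sequence is that of the dimmer of the 2 Wnt4 probes, shown because it is the only second probe of a ligand. Its 60 bases span 569 bases of chromosome 4 in mm9 (136851690 to 136852258, plus strand), so the probe crosses a splice junction.
Wnt4 junction probe: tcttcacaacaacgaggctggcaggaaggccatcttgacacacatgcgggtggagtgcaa
The other probes lay in 1 block of 60 or 61 bases each. In mm9 the Wnt10a probe was at chromosome 1, 74850633 to 74850692, and the Wnt6 probe at 74831461 to 74831520, both on the plus strand. The Wnt9b probe was at chromosome 11, 103588882 to 103588941, on the minus strand. Which exon or untranslated part these 3 probes lie in was not determined here.

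All ratios below are log2 of cKO over control, so a negative value is lower in the cKO, and levels are log2 intensities of a probe after normalisation. Errors are SDs over 4 arrays, and p-values come from limma with Benjamini-Hochberg adjustment over the 18161 genes tested. The p-values and intervals use the spread left after a term for the dye, moderated across genes, so they do not follow from the SDs alone. Median signals per channel were 460.3 to 607.3 units over backgrounds of 31 to 82, and array 1 had the most spots well above background. Trp63 itself fell by 2.18 ± 0.50 (adjusted p = 0.00207), or by 1.38 as the mean of its passing probes. Of 15 basal urothelial markers, Trp63 itself among them, 12 fell and none rose. Their median of -2.18 is the ratio of Trp63. The summed level of this list was 208692 to 247701 in controls and 83326 to 96842 in cKO. Of 16 general epithelial markers 5 fell and none rose (median -0.47, with array medians of -0.92, -0.08, -0.28 and -0.58). None of 9 superficial urothelial markers passed the threshold, but their median was -0.45 (array medians -0.86, -0.04, -0.29 and -0.44), and Upk1a, a uroplakin, had an adjusted p of 0.0503 and passed in 5 of 14 other ways of processing. None of 10 smooth muscle, 5 endothelial, 5 neuronal or glial and 5 leukocyte markers passed, and 1 of 16 mesenchymal markers rose. The medians of these lists were 0.15, 0.15, 0.13, -0.06 and 0.09 in that order. All 10 smooth muscle and all 5 endothelial markers had means above 0. So had 4 of 5 neuronal or glial, 1 of 5 leukocyte and 10 of 16 mesenchymal markers. The summed smooth muscle level was 602372 to 730325 in controls and 731827 to 798966 in cKO. The ureter label was met by uroplakin and smooth muscle genes above background in both genotypes. Among markers of other tissues, 5 of 9 hepatocyte markers rose (array medians 2.36, 2.66, 1.37 and 0.61), as did 2 of 7 adrenal cortex, 1 of 4 mesothelial and 1 of 5 tested nephron markers. Their part in the ligand values was not tested. These are whole ureters, so fewer cells of a type and less RNA per cell cannot be told apart.

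Wnt10a and Wnt6 fell in the cKO ureters, by 4.39-fold and 2.43-fold, and Wnt9b rose 2.45-fold. The other 6 ligands tested, Wnt10b, Wnt7b, Wnt4, Wnt5a, Wnt11 and Wnt2, did not pass the threshold, and Wnt2b was too dim to test. Thus 2 of the 9 tested ligands were lower and 1 was higher, where 8.55% of all genes were called (2.92% higher and 5.63% lower). The 2 genotypes did not overlap in level for 3 ligands, which 9.86% of all genes also showed. The sign was the same on all arrays for 5 ligands, against 30.6% of genes. The median ratio of the 9 was 0.01, beside 0.00 over all genes.

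**Figure D1:**
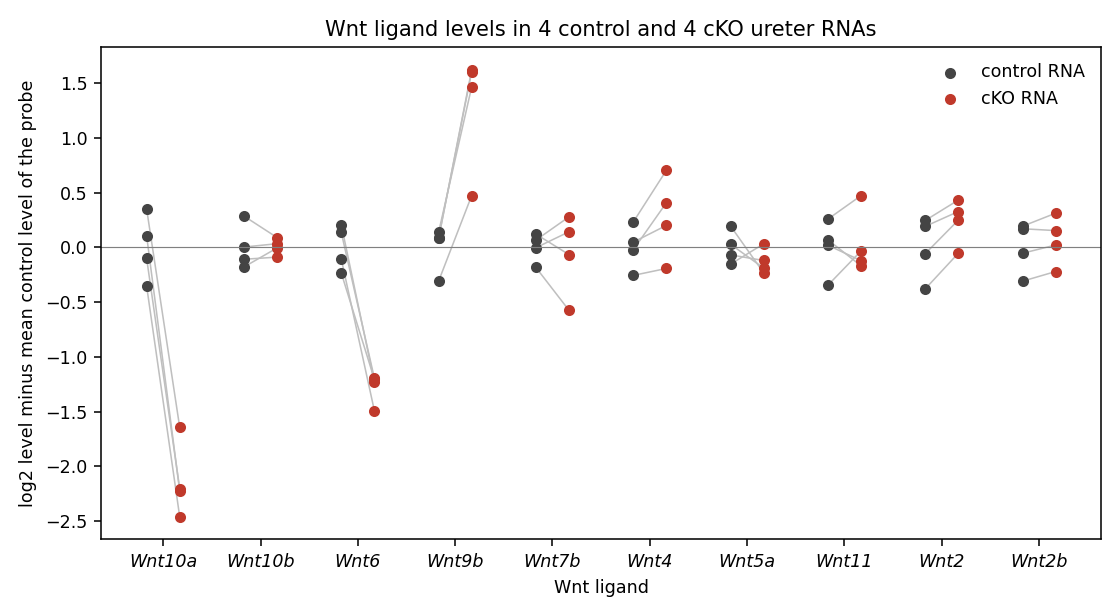
Normalised log2 level of each Wnt ligand in the 4 control RNAs (black) and 4 cKO RNAs (red), as the difference from the probe's mean control level, with grey lines joining the 2 RNAs of an array. Control and cKO points are apart for Wnt10a, Wnt6 and Wnt9b and intermingle for the other ligands.

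Wnt10a is a β-catenin-type ligand of skin, hair and tooth epithelium. Its normalised level in the controls of arrays 1 to 4 was 10.69, 11.39, 11.15 and 10.94. In the cKO it was 8.58, 9.40, 8.81 and 8.84. The highest cKO RNA, that of the male pair, lay below the lowest control, so the genotypes were apart. Before normalisation, the signal over background was 1355, 2983, 2284 and 2077 units in controls and 282, 588, 427 and 357 in cKO. The probe therefore stayed well above background in each cKO RNA, and the change was measured on both sides. The 4 ratios were -2.11, -1.99, -2.33 and -2.10, a mean of -2.13 ± 0.14 (95% interval -2.29 to -1.98, adjusted p = 0.000274). Array 2 had the smallest fall and array 3 the largest. Under 14 other ways of processing the fall lay between 4.22-fold and 4.90-fold, past the threshold in each.

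Wnt6, a ligand of surface and branching epithelia, lies next to Wnt10a on chromosome 1 with no protein-coding gene of the RefSeq table between them. Its level was 10.57, 10.82, 10.89 and 10.45 in the controls and 9.19, 9.49, 9.45 and 9.48 in the cKO. The lowest control, on array 4, lay above the highest cKO RNA, on array 2. The ratios were -1.38, -1.33, -1.44 and -0.97. The first 3 arrays lay close together, and array 4 showed the smallest fall. The mean was -1.28 ± 0.21 (95% interval -1.47 to -1.09, adjusted p = 0.00127), and the call held under the same 14 alternatives at 2.28-fold to 2.59-fold. The intervals of Wnt6 and Wnt10a do not meet, though the difference between the 2 ratios was not itself tested.

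Wnt10b, the closest relative of Wnt10a, acts in hair follicle, mammary gland and fat. It did not pass the threshold. Its ratios were 0.17, 0.03, 0.02 and -0.20, a mean of 0.01 ± 0.15 (95% interval -0.16 to 0.17, adjusted p = 0.967). Levels ran from 7.16 to 7.63 in controls and from 7.25 to 7.43 in cKO, with every cKO value inside the control range. The sign turned when array 1 or array 2 was left out. Wnt10b is neighboured on chromosome 15 by Wnt1, which had a ratio of -0.06 ± 0.09.

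Wnt9b was the ligand that rose. Its level was 6.77, 7.22, 7.17 and 7.17 in the controls and 7.55, 8.55, 8.70 and 8.69 in the cKO. Each cKO RNA was above each control, and array 1 was the lowest of both genotypes. The probe was dim: signals over background were 59.6, 77.3, 70.5 and 72.5 units in controls and 166, 271, 355 and 288 in cKO. It was nevertheless well above background in all 8 RNAs. The ratios were 0.78, 1.33, 1.54 and 1.52, so the rise was smallest on array 1 and alike on the other 3 arrays. The mean was 1.29 ± 0.35 (95% interval 0.96 to 1.62, adjusted p = 0.00604). The rise was 2.63-fold with no background subtraction, 3.85-fold with the processed signals of the scanner software and 3.90-fold in the deposited value table. In a fit of the separate channels with no replicate block, which leaves out the pairing by array, the adjusted p was 0.0548. The other 13 alternatives kept the call.

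Values of other genes that moved on the same arrays stand beside this rise. Wnt9b is known from the collecting duct, and of 12 tested collecting duct markers 5 rose and 2 fell, with a median of -0.05. Scnn1b, a subunit of the epithelial sodium channel, had ratios of 1.08, 1.44, 1.64 and 1.27 (mean 1.36 ± 0.24, adjusted p = 0.00255). Avpr2, the vasopressin receptor of the collecting duct, had a mean of 0.62 ± 0.20 (adjusted p = 0.00943), or of 1.10 with the processed signals. Also risen were Tfcp2l1 (0.72 ± 0.22, adjusted p = 0.0131), Ret (0.57 ± 0.22, adjusted p = 0.022) and Pax8 (0.44 ± 0.25, adjusted p = 0.0487). The 2 that fell were Aqp3, a water channel (-0.80 ± 0.29, adjusted p = 0.0198), and Emx2, a transcription factor (-0.62 ± 0.23, adjusted p = 0.0165), while Aqp2, Pax2 and Hoxb7 had means of -0.05, -0.05 and -0.07. The summed level of the collecting duct markers was 54235 to 59771 in controls and 38397 to 56915 in cKO. This sum is weighted to the brightest of them, Gata3, Aqp3 and Hoxb7, with mean control levels of 14.65, 14.06 and 13.09. Which cells of the whole ureter gave these signals was not determined, so the sum is no measure of collecting duct content. Gata3 had a mean ratio of -0.42 ± 0.33 (adjusted p = 0.125). Calb1 and Atp6v1b1 were not tested because they were too dim. Of the nephron markers Cubn, the endocytic receptor cubilin, rose by 2.27 ± 0.52 (adjusted p = 0.0031). The other 4 tested did not pass, with means of -0.08 for Lrp2, -0.55 for Slc34a1, -0.18 for Cited1 and 0.05 for Six2, and Umod, Slc12a1, Slc12a3 and Nphs1 were among those too dim to test. The part of kidney tissue in the Wnt9b ratio was not tested. The epithelial marker medians were -0.92, -0.08, -0.28 and -0.58 on arrays 1 to 4, where the Wnt9b ratios were 0.78, 1.33, 1.54 and 1.52. Array 1 was lowest in both, but the remaining arrays were not in the same order, and no relation was tested. Without array 1 the Wnt9b mean was 1.48. Wnt3, the neighbour of Wnt9b on chromosome 11, was well above background in 1 control RNA and in no cKO RNA.

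**Figure D2:**
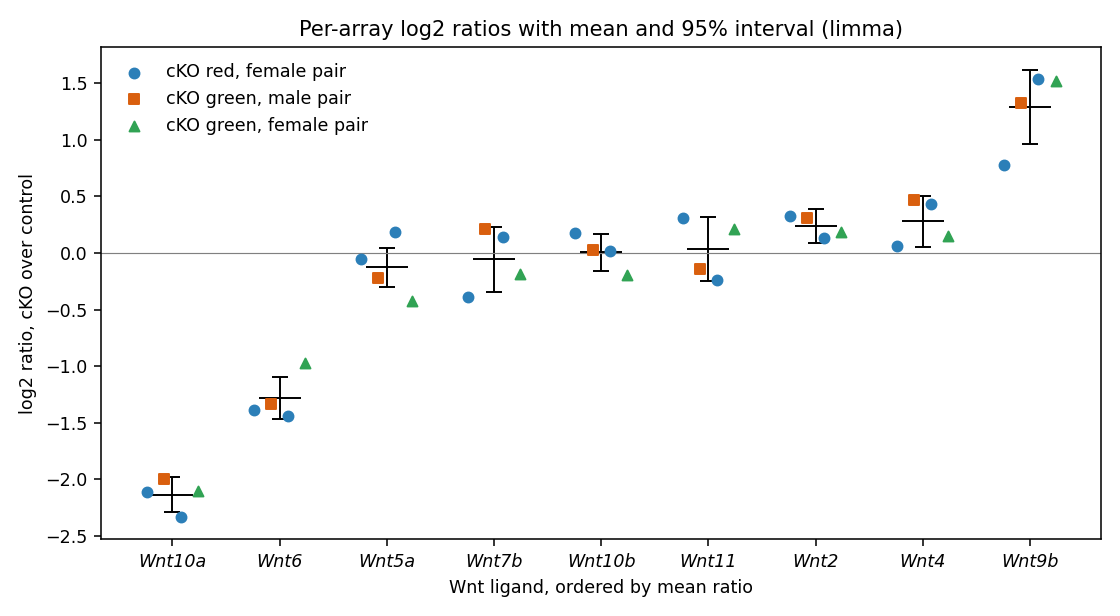
Log2 ratio of cKO over control on each of the 4 arrays for the 9 ligands tested, ordered by their mean, with the limma mean (long bar) and its 95% interval; symbols give the dye of the cKO RNA and the sex of the pair. Wnt10a and Wnt6 lie below 0 and Wnt9b above 0 on each array, while the points of Wnt5a, Wnt7b, Wnt10b and Wnt11 fall on both sides of 0.

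Wnt7b, the other epithelial ligand of the ureter and a signal of the collecting duct to the renal medulla, did not pass the threshold. Its levels were 9.92, 10.17, 10.10 and 10.22 in controls and 9.52, 10.38, 10.24 and 10.03 in cKO. The genotypes overlapped, and the cKO RNAs held both the lowest and the highest value. The ratios of -0.39, 0.21, 0.15 and -0.19 gave a mean of -0.06 ± 0.28 (95% interval -0.34 to 0.23, adjusted p = 0.837), and the sign turned without array 1 or array 4. The interval excludes a change as large as that of Wnt9b in either direction. Wnt11, which marks the tips of the ureteric tree in the kidney, spread as widely. Its ratios were 0.31, -0.14, -0.24 and 0.21, with a mean of 0.04 ± 0.27 (95% interval -0.25 to 0.32, adjusted p = 0.891). On each array where Wnt7b was above 0 Wnt11 was below it, and the reverse, which is a description of 4 pairs of values.

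Wnt4, needed for nephron formation and also made in female reproductive tissue, had 2 probes. The brighter probe (chromosome 4, 136855342 to 136855401, mm9) gave ratios of 0.06, 0.47, 0.43 and 0.15, above 0 on each array. The mean was 0.28 ± 0.20 (95% interval 0.05 to 0.51), which did not pass after adjustment (adjusted p = 0.142). The junction probe printed above gave -0.02, 0.44, 0.41 and 0.10, a mean of 0.23 ± 0.23. The 2 probes thus ranked the arrays alike, with arrays 2 and 3 above arrays 4 and 1. Array 2 is the male pair, and its Wnt4 ratio was near that of array 3, a female pair. Levels of the brighter probe overlapped, at 12.47 to 12.96 in controls and 12.53 to 13.43 in cKO.

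The remaining ligands are made mainly by mesenchyme in many organs. Wnt5a, the ligand best known for signalling without β-catenin, had ratios of -0.05, -0.22, 0.19 and -0.43 (mean -0.13 ± 0.26, 95% interval -0.30 to 0.05, adjusted p = 0.35). These values went with the dye: the mean was 0.07 on the 2 arrays with the cKO in red and -0.32 on the 2 with it in green. Wnt2, a ligand of lung and bladder mesenchyme, had ratios of 0.33, 0.31, 0.14 and 0.19. All 4 were above 0 and their spread was the smallest among the tested ligands (mean 0.24 ± 0.09, 95% interval 0.09 to 0.39), yet the adjusted p was 0.0809. It passed in 2 of 14 alternatives, at 0.0464 with the processed signals of the scanner software, where the mean was 0.52, and at 0.0485 without the dye term. Control levels of 6.59 to 7.22 overlapped cKO levels of 6.92 to 7.40, and signals over background of 44.1 to 85.9 units place the Wnt2 probe near the dim end. Wnt2b, closely related to Wnt2, was well above background in 3 control RNAs and 2 cKO RNAs. It was therefore not tested, and its ratios of 0.09, 0.08, -0.02 and 0.12 set no bound on a change.

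**Figure D3:**
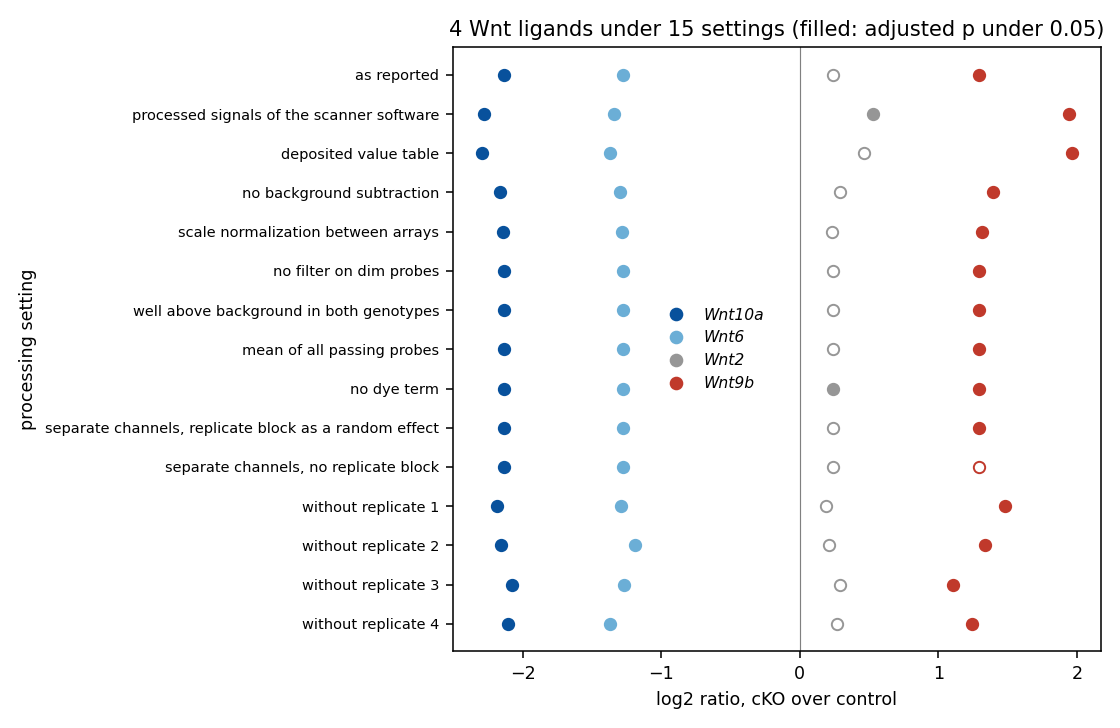
Log2 ratio of Wnt10a, Wnt6, Wnt2 and Wnt9b as reported (top) and under 14 other ways of processing the arrays, with filled points where the limma adjusted p is under 0.05. Wnt10a and Wnt6 are filled throughout, Wnt9b is open only without the replicate block, and Wnt2 is filled in 2 settings.

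The genes whose 4 ratios lay nearest to those of each changed ligand were found by the root mean square difference over the 4 arrays. For Wnt10a these were Shh, a signal of the ureter epithelium to the mesenchyme (0.158 on the log2 scale), Sox15, a transcription factor (0.161), and Fat2, a large cadherin (0.195). Shh fell by 2.21 ± 0.07 and Sox15 fell by 2.24 ± 0.10. For Wnt6 they were Krt14, a basal keratin (0.116), Areg, the EGF receptor ligand amphiregulin (0.131), and Apobec1, an RNA-editing enzyme (0.132). Krt14 had ratios of -1.25, -1.43, -1.54 and -1.09, with its smallest fall on array 4 as in Wnt6. For Wnt9b they were Lrrc26, an auxiliary subunit of potassium channels (0.119), Il18, a cytokine of epithelia (0.137), and Ager, a receptor of the immunoglobulin family (0.153). Lrrc26 had ratios of 0.81, 1.52, 1.56 and 1.38, again smallest on array 1. The likeness is that of 4 values per gene. Because these genes were chosen by those values, a like size and array pattern follows from the choice. Shh, Sox15 and Krt14 also stand in the list of basal markers used here.

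Beyond these 10 genes, the array held 9 other Wnt ligands, of which 4 could be tested and none passed. The brightest were Wnt5b (0.22 ± 0.12, adjusted p = 0.134) and Wnt9a (-0.12 ± 0.19, adjusted p = 0.472), and Wnt3, Wnt3a, Wnt7a, Wnt8a and Wnt8b were too dim. Over the 71 tested genes of all Wnt pathway lists, the 10 ligands not among them, 12 were higher and 4 were lower, with a median of 0.05. Over all genes 2.92% were higher and 5.63% lower. Thus 2 of the 3 called ligands were lower while 12 of the 16 called pathway genes were higher, a difference that was not tested. Among all called genes 34.1% were higher. The pathway counts depended on the arrays used, and with 1 array left out 4 to 7 genes were higher and 1 was lower. In the deposited value table the counts were 2 and 1, and without the replicate block they were 0 and 2.

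Among 5 genes that process or remove ligands, 1 rose and 1 fell. Wls, the carrier of Wnt proteins, fell by 0.28 ± 0.12 (adjusted p = 0.0339), and Notum, an enzyme that strips the lipid from Wnt proteins, rose by 0.29 ± 0.15 (adjusted p = 0.0404). Both calls were lost whichever array was left out, at 0.0966 to 0.156 (adjusted p) for Wls and 0.0897 to 0.175 for Notum. Of 18 receptors and co-receptors 2 rose and 1 fell, with a median of 0.06. Fzd6, a Frizzled of planar polarity in skin and hair, had ratios of -0.98, -0.72, -0.70 and -0.89. Its mean of -0.82 ± 0.13 (adjusted p = 0.00346) made it the most changed receptor, and the fall held in all 14 alternatives. Ror1, a receptor kinase for Wnt5a, rose by 0.37 ± 0.10 (adjusted p = 0.0266). Adgra2, a co-receptor for Wnt7 ligands, rose by 0.30 ± 0.13 (adjusted p = 0.0318). Ror1 did not pass without array 1, 2 or 4, and Adgra2 did not pass whichever array was left out (adjusted p up to 0.115 and 0.146).

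Secreted inhibitors and their co-receptors held 11 tested genes, of which 3 rose and 1 fell, with a median of 0.15. Dkk1, which blocks Lrp5 and Lrp6, had ratios of 1.02, 0.89, 1.06 and 0.21 (mean 0.79 ± 0.40, adjusted p = 0.0184). Array 4 stood lowest, and the call was lost without array 1 or array 3 (adjusted p up to 0.0735), in the deposited value table (0.0881) and without the replicate block (0.0727). With the processed signals the Dkk1 mean was 1.37. Dkk2 of the same family rose by 0.54 ± 0.20 (adjusted p = 0.0131, up to 0.0509 without array 2 or 4). Sfrp2, a secreted decoy related to Frizzled, rose by 0.58 ± 0.25 (adjusted p = 0.0165, up to 0.0647 without array 1 or 4). Kremen1, a Dickkopf receptor, fell by 0.27 ± 0.11 (adjusted p = 0.0484), a call lost whichever array was left out (adjusted p up to 0.195). In the R-spondin axis, which raises Wnt receptor levels, 1 of 8 tested genes passed. This was Lgr5, an R-spondin receptor and Wnt target, with ratios of 0.34, 0.83, 0.71 and 0.44 and an adjusted p of 0.0269, or up to 0.0878 without array 2 or 3.

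Of 18 intracellular components 1 rose and 1 fell, with a median of -0.04. Lef1, a nuclear partner of β-catenin, rose by 0.42 ± 0.15 (adjusted p = 0.0273), and Ctnnb1, β-catenin itself, fell by 0.26 ± 0.08 (adjusted p = 0.0478). The Lef1 call was lost without array 1, 3 or 4 (adjusted p up to 0.111) and that of Ctnnb1 whichever array was left out (adjusted p up to 0.192).

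The 14 target and feedback genes of β-catenin signalling, some of which also stand in the lists above, were the group with the most calls. Of these 8 rose and none fell, 13 had a mean above 0, and the median was 0.35, with array medians of 0.41, 0.23, 0.33 and 0.40. Of all 18161 genes tested 2.92% rose and 5.63% fell, and 9204 had a mean above 0. Axin2, a target that acts back on the β-catenin destruction complex, had ratios of 1.16, 0.43, 0.78 and 0.76 (mean 0.78 ± 0.30, adjusted p = 0.00948). Sp5, a transcription factor induced by Wnt signals, had ratios of 0.76, 0.43, 1.02 and 0.81 (mean 0.76 ± 0.25, adjusted p = 0.00867). Both were lowest on array 2, the male pair, and both kept their call when any single array was left out. Axin2 lost it with the deposited value table and without the replicate block (adjusted p up to 0.0668), and Sp5 without the block (0.231). As the mean of its passing probes Axin2 was 0.49, and Sp5 was 1.16 with the processed signals. The count of risen targets was 3 without array 1, 3 without array 3 and 4 without array 4, and it was 1 in the deposited value table. It was 13 in a fit of separate channels with the array as a random replicate block and 0 without the block. The member with a mean below 0 was Znrf3, a ligase that removes Wnt receptors, at -0.08 ± 0.06.

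**Figure D4:**
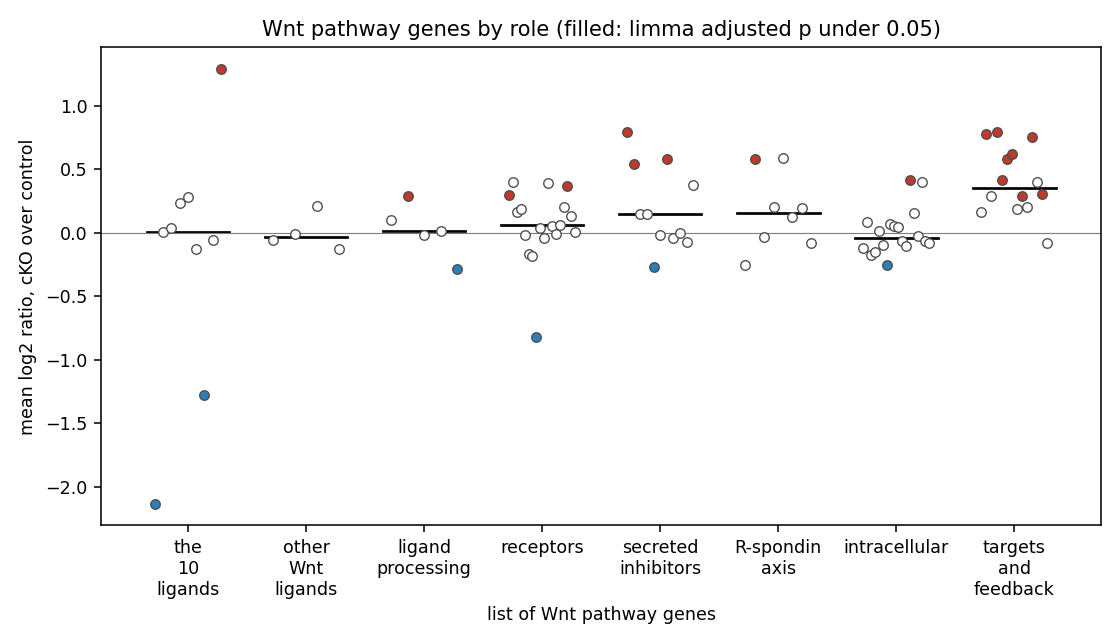
Mean log2 ratio of cKO over control for each tested gene of the Wnt pathway lists, by role, with filled points for limma adjusted p under 0.05 and a bar at the median of each list. Wnt10a and Wnt6 are the lowest and Wnt9b the highest points of the plot, and the target and feedback list has the highest median, 0.35.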

How the data were processed

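The authors used Agilent Feature Extraction (version 10.7.3.1, as the submitters' processing notes state) on the 4 arrays. The deposited scanner files hold intensity values (each channel's mean signal, local background median and processed signal) and a log10 ratio of red over green. Log2 ratios of cKO over control fill the deposited value table. Its scale and direction were read from its agreement with the scanner values (r = 0.69 to 0.80 per array). Its columns have a median of 0, and the sources used here do not say how 7718 to 12487 probes per array came to be exactly 0. Per the labels, 200 ng of total RNA was amplified and coupled to AlexaFluor 555 or 647, with the cKO in 647 (red) on arrays 1 and 3.

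Mean signals were background-corrected by normexp (offset 50) and normalised within arrays by loess, and levels were made comparable between arrays by Aquantile (limma 3.58.1, R 4.3.3). Spots with outlier flags were left out and the 4 spots of a probe averaged; 0 spots were saturated. A gene was tested if a probe was well above background in over a share of 0.5 of its spots on all arrays of at least 1 genotype, and its brightest probe was used. Probes were named through RefSeq (28328 by accession, 3400 by symbol and 243 by older symbol, while 1777 kept the file's name), and 5681 without a name were left out of gene tests. Ratios were fitted with lmFit and eBayes with a dye term, at an adjusted p of 0.05. The scripts were tested on simulated data.

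Both RNAs of a pair share an array, and their deviations from the group means correlated at 0.472 to 0.839; on arrays 2 and 3 an RNA of another array correlated slightly more (0.497 and 0.543). The pairing comes from the shared array and is built into the ratio. The fit of separate channels with no replicate block leaves the pairing out. Alternatives were the processed signals, the value table, no background subtraction, scale normalisation, 2 other filters, the mean of probes, no dye term, each array left out, and separate channels with no block or with a random block per array (statmod 1.5.0, correlation within spots 0.741). Named genes are the ligands, Trp63, up to 4 called genes per pathway list with the lowest p (or the 2 brightest), up to 2 per marker list, the 3 genes nearest each ligand changed by a log2 ratio of at least 1, and the nearest Wnt gene on the chromosome. Some marker genes that the rule or lists hold are not reported here. Znrf3, Tfcp2l1, Ret, Pax8, Aqp3, Emx2, Gata3, Aqp2, Pax2, Hoxb7, Lrp2, Slc34a1, Cited1 and Six2 are named outside this rule, after their values were seen. The ligands, lists and rules were chosen with earlier results of these data known.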

Additional observations from a re-analysis of the deposited data

How the results depend on the processing

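The calls of Wnt10a and Wnt6 held under all 14 alternatives, and 2 ligands were lower in each. As reported, 1 ligand was higher; 2 were higher with the processed signals and 2 without the dye term (Wnt2 in addition), and 0 with separate channels and no replicate block. Signs near 0 turned for Wnt10b (-0.020 in the deposited value table, -0.050 to 0.064 with 1 array left out), Wnt11 (-0.10 to 0.17), Wnt7b (-0.19 to 0.079) and the glial gene Sox10 (0.017 with the processed signals and 0.023 in the value table, -0.088 to 0.038 with 1 array left out). Over all genes 530 were higher and 1023 lower; these were 259 and 596 in the value table, 1229 and 1722 with the array as a random replicate block, 124 and 440 without the block, and 277 to 359 and 554 to 768 with 1 array left out. Of the pathway genes 12 were higher and 4 lower; the higher count was 2 in the value table, 19 with the block, 0 without it and 4 to 7 with 1 array left out, and the lower count was 1 with the processed signals, 1 in the value table, 2 without background subtraction, 2 without the block and 1 with any array left out. Targets and feedback genes numbered 8 higher; this was 1 in the value table, 13 with the block, 0 without it and 3 to 6 with 1 array left out. Among all calls 34.1% were higher, 41.6% with the block and 22% without it. The causes were not tested. The number of arrays limits precision. The probes of Wnt2, Wnt10b and, in controls, Wnt9b were dim, and Wnt2b was not well above background in all RNAs of either genotype. Also dim in controls were Avpr2, Dkk1 and Sp5, with mean levels of 6.95, 7.06 and 7.34 beside 7.08 for Wnt9b.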
